A study of Homo sapiens with 6 samples.

Results

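The protein phosphatases of the PPP family remove phosphate from serine and threonine residues, and a few catalytic subunits carry this activity for most of the cell. The 10 genes described here code for the catalytic subunits of PP1 (*PPP1CA*, *PPP1CB* and *PPP1CC*), PP2A (*PPP2CA* and *PPP2CB*), calcineurin or PP2B (*PPP3CA* and *PPP3CB*), PP4 (*PPP4C*), PP5 (*PPP5C*) and PP6 (*PPP6C*). They were chosen by gene symbol, as the probe set whose platform annotation gives exactly that symbol, and make up 10 of the 18404 genes with a single symbol on the array. Each of them had 1 probe set, so no choice between probe sets was needed. In GRCh38.p14 they lie on different chromosomes, with *PPP2CA* on chromosome 5 and *PPP2CB* on chromosome 8.

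MUG-Chor1 is a cell line derived from a sacrococcygeal chordoma, a tumor that resembles the notochord. Its cultures hold small cells without vacuoles and large, heavily vacuolated cells that are called physaliferous. The groups differ in the appearance of the picked cells, and the labels name no drug or genetic change that separates them. Both came from cultures in the same serum-containing medium and were freed with trypsin. For each phenotype 3 pools of 20 cells were picked by micromanipulation, large pools 2, 3 and 4 and small pools 5, 6 and 7, and their RNA was amplified and put on 1 Human Gene 1.0 ST array a pool. All pools come from 1 cell line, and the sources used here do not say whether they were taken from separate cultures, so that the p-values cover only how much these pools vary, which may be technical. In pools of cells, fewer cells of a kind and less RNA per cell cannot be told apart.

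Catalytic subunits of this family rarely act alone. PP1 and PP2A take their substrate specificity from regulatory subunits, PP2A being built from a catalytic C, a scaffold A and an exchangeable B subunit. Calcineurin is switched on by calcium and calmodulin and acts on the NFAT transcription factors, PP4 and PP6 resemble PP2A in sequence, and PP5 is a single chain with its own regulatory domain that binds HSP90.

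The deposited values are log2 expression after robust multi-array averaging. A level of 6.64, the log2 of 100, was taken as the expression floor. The array medians lay between 6.64 and 6.68 in large and between 6.73 and 6.76 in small pools. The chordoma markers *TBXT*, *KRT8*, *KRT19* and *VIM* were above the floor in all pools, with *TBXT*, which codes for brachyury, between 10.17 and 10.39. Over all genes the median log2 fold change, large minus small, was -0.11, and 66.4% of genes were lower in large pools. Among the markers of other cells, 8 of 8 fibroblast genes were lower in large pools, with sums of log2 levels of 53.6 to 54.7 against 55.7 to 57.9. After centring each array on its median 6 of 8 were lower. Of these markers, 2 were above the floor in no pool. Of 4 leukocyte genes 2 were higher, with sums of 25.7 to 27.1 against 25.5 to 26.4, and *CD68*, a lysosomal protein of macrophages, had the smallest p (log2 fold change 0.60, adjusted p from limma 0.33), while *PTPRC*, the common leukocyte antigen, was below the floor in all pools. The part of these markers in the results on phosphatases was not tested.

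*PPP2CB*, the beta form of the PP2A catalytic subunit, had a higher level in each large pool than in any small pool, and was the only 1 of the 10 catalytic subunits whose groups did not overlap. Its log2 expression was 8.99, 9.03 and 8.87 in large pools 2, 3 and 4. In small pools 5, 6 and 7 it was 7.40, 7.63 and 7.55. The lowest large pool thus lay 1.24 above the highest small pool on the log2 scale, and all 6 pools were above the expression floor. The means were 8.96 ± 0.08 (SD, n = 3) in large and 7.52 ± 0.12 (SD, n = 3) in small pools. Large minus small was 1.44 on the log2 scale (standard error 0.11, with 1.18 to 1.70 as the 95% confidence interval), which corresponds to a 2.71-fold higher signal in large pools (interval 2.27 to 3.25). Its pooled SD of 0.10 was small, as only 15.0% of the 11694 genes above the expression floor varied less between pools of a phenotype.

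The adjusted p of *PPP2CB* from limma over all 18404 genes was 0.14, so the gene was not called at an adjusted p under 0.05 and a log2 fold change above 1. None of the genes on the array was called (0%), and 0.14 was the smallest adjusted p reached, at which *PPP2CB* was 1 of 3 genes. Its unadjusted p, 8.2e-06, was the smallest of all genes. In the two-sided exact permutation test of 3 against 3 pools its p was 0.1, the smallest this design allows. When the variance came from all probe sets but p was adjusted only over the 2193 probe sets with 1 symbol that passed filters on level and variation, *PPP2CB* was called, with an adjusted p of 0.042 from limma. That setting was chosen after the values were seen. The study picked this gene from these same arrays, so its difference is given as a description and not as independent evidence. The study also measured the gene by RT-qPCR, which is not part of the values used here. That measurement used amplified cDNA of picked MUG-Chor1 cells and gave a higher level in large cells. In a second chordoma line, U-CH1, the paper reports the same trend but calls it not statistically significant.

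**Figure D1:**
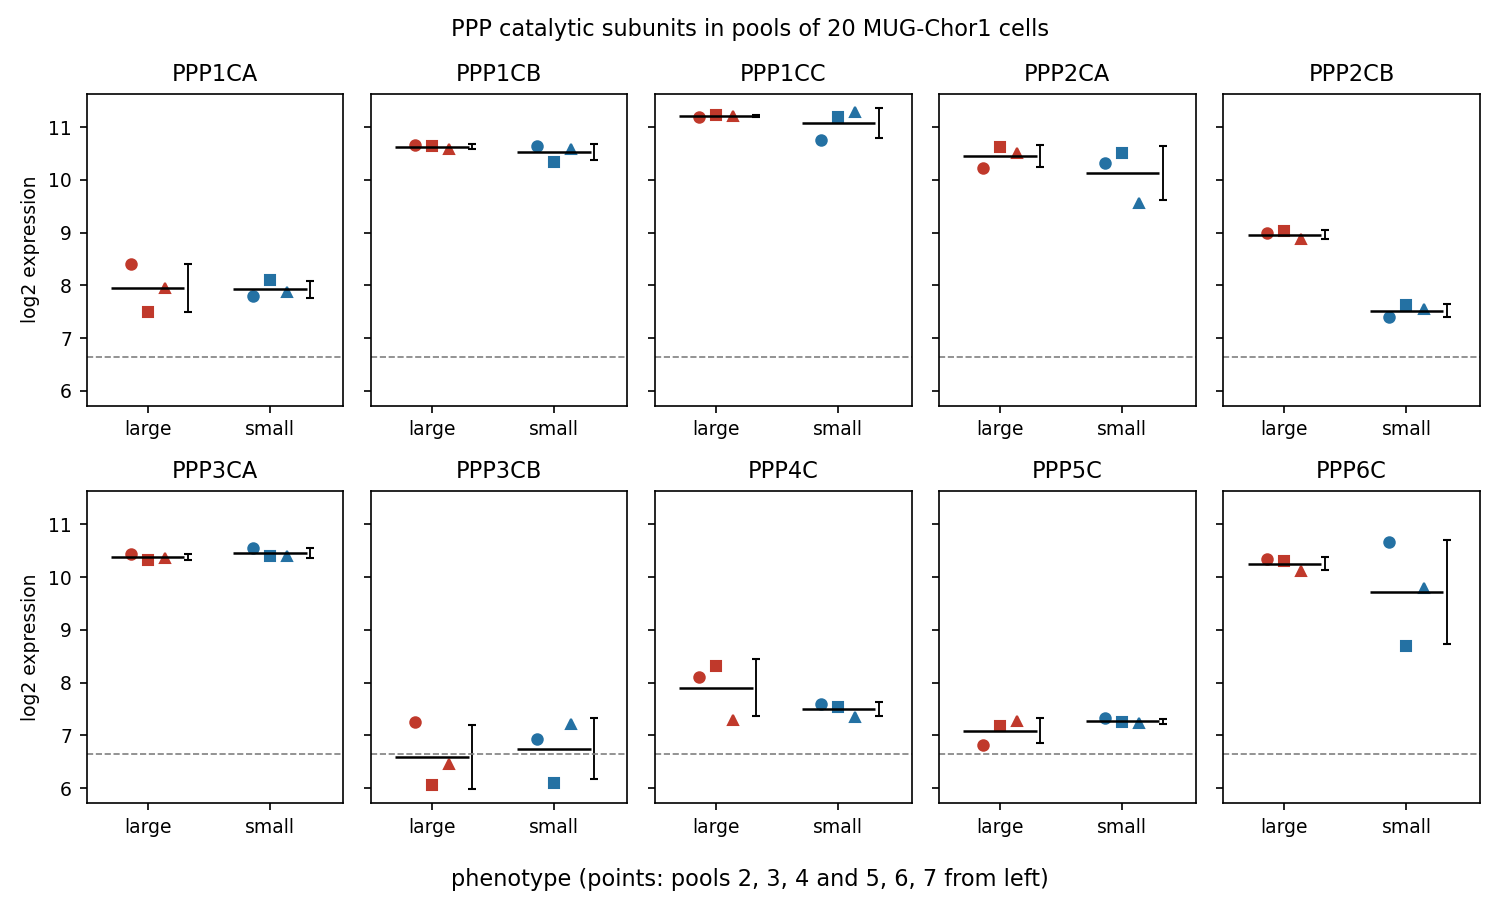
Log2 expression (vertical axis) of each of the 10 catalytic subunits in pools of 20 large (red) and 20 small (blue) MUG-Chor1 cells. Each point is 1 pool, with the mean as a horizontal line, the SD over 3 pools as a bar and the floor of 6.64 dashed; the large and small pools are apart for *PPP2CB* and overlap for the other 9 genes.

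*PPP2CA* codes for the alpha form of the PP2A catalytic subunit, a close relative of the beta form. Its log2 expression was 10.22, 10.63 and 10.50 in the large and 10.32, 10.51 and 9.56 in the small pools. The phenotypes overlapped, since small pools 5 and 6 lay among the large pools and only small pool 7 lay below them. The log2 fold change was 0.32 (standard error 0.27, interval -0.33 to 0.97), with an adjusted p from limma of 0.53. Without small pool 7 it was 0.03.

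The difference between *PPP2CB* and *PPP2CA* within a pool does not move with the centring of an array. It compares the signals of 2 probe sets, whose absolute levels cannot be set against each other, so that only its change between phenotypes was read. *PPP2CB* minus *PPP2CA* was -1.23, -1.60 and -1.63 in large and -2.92, -2.88 and -2.01 in small pools on the log2 scale. It was therefore less negative in every large pool than in any small pool. The means differed by 1.12 (standard error 0.32), a 2.18-fold change in the ratio of the 2 signals, with p = 0.1 in the two-sided exact permutation test over 20 arrangements of the pools, the smallest possible. Without 1 pool this change ran from 0.96 to 1.42. The proteins are nearly identical, and how far the probe set of either gene also reads the other was not tested.

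Measured against the other 9 catalytic subunits, the change of *PPP2CB* depended on how these were summarized. *PPP2CB* minus the median of the other 9 was -1.23, -1.27 and -1.24 in large and -2.92, -1.06 and -2.01 in small pools. Small pool 6 thus lay above the large pools, and the means differed by 0.75 (standard error 0.54, two-sided exact permutation p = 0.4). In small pool 6 the middle gene was *PPP6C*, whose level of 8.69 was itself low there. Against the mean of the other 9, *PPP2CB* was -0.28, -0.10 and -0.21 in large and -1.78, -1.28 and -1.49 in small pools, so that the phenotypes were apart. With the mean the change was 1.32 (standard error 0.15, exact permutation p = 0.1). Without small pool 6 the change against the median was 1.22, and without small pool 5 it was 0.29.

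The 3 catalytic subunits of PP1, which act in mitosis, glycogen metabolism, muscle contraction and splicing, had overlapping levels in the 2 phenotypes. *PPP1CB*, the form that belongs to myosin phosphatase, had 10.66, 10.65 and 10.58 in large and 10.64, 10.35 and 10.59 in small pools. *PPP1CC* had 11.19, 11.23 and 11.22 in large and 10.76, 11.20 and 11.29 in small pools. *PPP1CA* had 8.41, 7.50 and 7.94 in large and 7.80, 8.11 and 7.87 in small pools. In each of these genes the pools of the phenotypes overlapped, and *PPP1CC* and *PPP1CB* were the steadier ones among the large pools. The log2 fold changes were 0.10 for *PPP1CB* (interval -0.17 to 0.38), 0.12 for *PPP1CC* (-0.25 to 0.50) and 0.02 for *PPP1CA* (-0.56 to 0.61). The value of *PPP1CA* was -0.00068 after quantile normalization. Adjusted p from limma ran from 0.63 to 0.96 for the PP1 genes. Without small pool 5 the value of *PPP1CC* was -0.04, and without large pool 2 that of *PPP1CA* was -0.21.

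Calcineurin links calcium signals to gene expression. The level of *PPP3CA*, its alpha catalytic subunit, was 10.44, 10.33 and 10.37 in large and 10.56, 10.41 and 10.40 in small pools. *PPP3CA* varied little between pools of a phenotype, with a pooled SD of 0.08, and 6.66% of the genes above the floor varied less. Its log2 fold change was -0.08 (interval -0.31 to 0.16), which became 0.01 after centring each array on its median. *PPP3CB*, the beta subunit, was near the floor, with 7.26, 6.06 and 6.46 in large and 6.92, 6.10 and 7.22 in small pools. Only 1 of 3 large and 2 of 3 small pools exceeded the floor for *PPP3CB*. Its log2 fold change was -0.15 (interval -1.12 to 0.82).

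*PPP4C*, the catalytic subunit of PP4, which acts in DNA repair and at centrosomes, had 8.10, 8.31 and 7.29 in large and 7.60, 7.54 and 7.34 in small pools. Large pools 2 and 3 were above all small pools, whereas large pool 4 was below them. The log2 fold change was 0.41 (interval -0.25 to 1.07; adjusted p from limma 0.45), with 0.71 without large pool 4 and 0.20 without large pool 3. *PPP6C*, the catalytic subunit of PP6, which regulates the mitotic kinase Aurora A, had 10.34, 10.30 and 10.12 in large and 10.67, 8.69 and 9.79 in small pools. The large pools of *PPP6C* lay close together, but the small pools spanned from above to well below them. The pooled SD of *PPP6C*, 0.71, was larger than that of 93.9% of genes above the floor. The log2 fold change was 0.54 (interval -0.61 to 1.69; adjusted p from limma 0.55), and it was 1.01 without small pool 5 and 0.03 without small pool 6.

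*PPP5C* codes for PP5, which works with HSP90 on nuclear receptors and kinases. It had 6.81, 7.18 and 7.27 in large and 7.32, 7.24 and 7.23 in small pools. Large pool 4 fell among the small pools, and the log2 fold change was -0.18 (interval -0.52 to 0.17; adjusted p from limma 0.52). Without large pool 2 it was -0.04, and without large pool 4 it was -0.27.

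Of the 10 catalytic subunits 7 were higher and 3 lower in large pools, with counts of 6 and 4 under quantile normalization, and of 8 and 2 under centring of each array on its median. The median log2 fold change was 0.11 (0.09 after quantile normalization and 0.20 after centring), beside -0.11 over all genes. At an unadjusted p under 0.05 from limma, 1 member was higher and 0 were lower, where 4.33% of all genes were higher and 10.5% lower. This split of 797 higher and 1934 lower genes turned to 1207 and 718 under centring, with 1 and 0 members. Pools of the phenotypes did not overlap for 1 member, which was higher, where 5.48% of all genes were higher and 21.6% lower in this way. Beside these shares, 1 of 10 is not a result about the family. The differences of the other 9 lay between -0.18 and 0.54, and for 6 of these 9 genes the interval lay within a log2 fold change of 1 in either direction. For *PPP3CB*, *PPP4C* and *PPP6C* the interval reached beyond 1 in one direction.

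**Figure D2:**
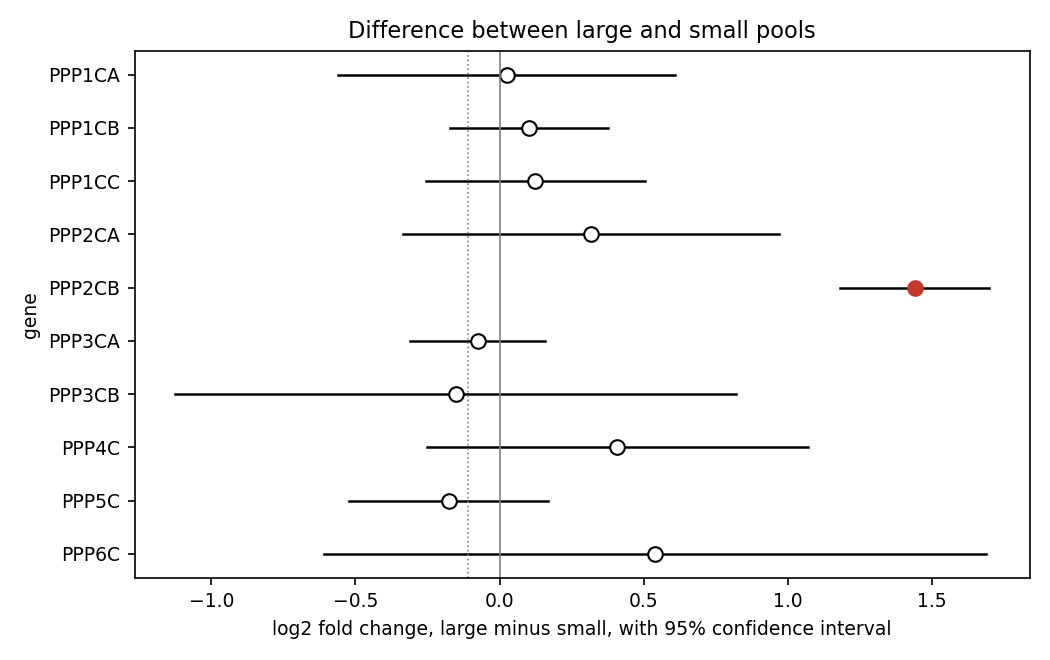
Log2 fold change of large against small pools (horizontal axis) of the 10 catalytic subunits, with 95% confidence intervals from limma (3 pools against 3). The solid grey line marks 0 and the dotted line the median over all genes, -0.11; only the interval of *PPP2CB* (filled, 1.18 to 1.70) lies clear of 0.

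The 4 measured genes nearest to *PPP2CB* on chromosome 8, by RefSeq order, had smaller differences than *PPP2CB*. *UBXN8*, a membrane protein with a UBX domain and the nearest measured gene on the side before *PPP2CB*, had 8.40, 7.53 and 9.40 in large and 7.79, 6.71 and 7.20 in small pools. These pools overlapped, and large minus small was 1.21 (standard error 0.51, adjusted p from limma 0.34). *GSR*, the glutathione reductase gene beyond *UBXN8*, had overlapping pools and a value of 0.16 (standard error 0.12, adjusted p from limma 0.47). On the side after *PPP2CB* lie *TEX15* and *PURG*, both below the floor in all pools. Of the 20 measured genes within 10 places on either side, 10 were higher and 10 lower in large pools, with a median of -0.03. At an unadjusted p under 0.05 from limma, 4 of the 20 genes were higher and 1 was lower, where 4.33% of all genes were higher and 10.5% lower. These 20 genes were counted on the deposited values only, and the balance over all genes turned under centring. Whether the region differs from other regions was not tested.

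**Figure D3:**
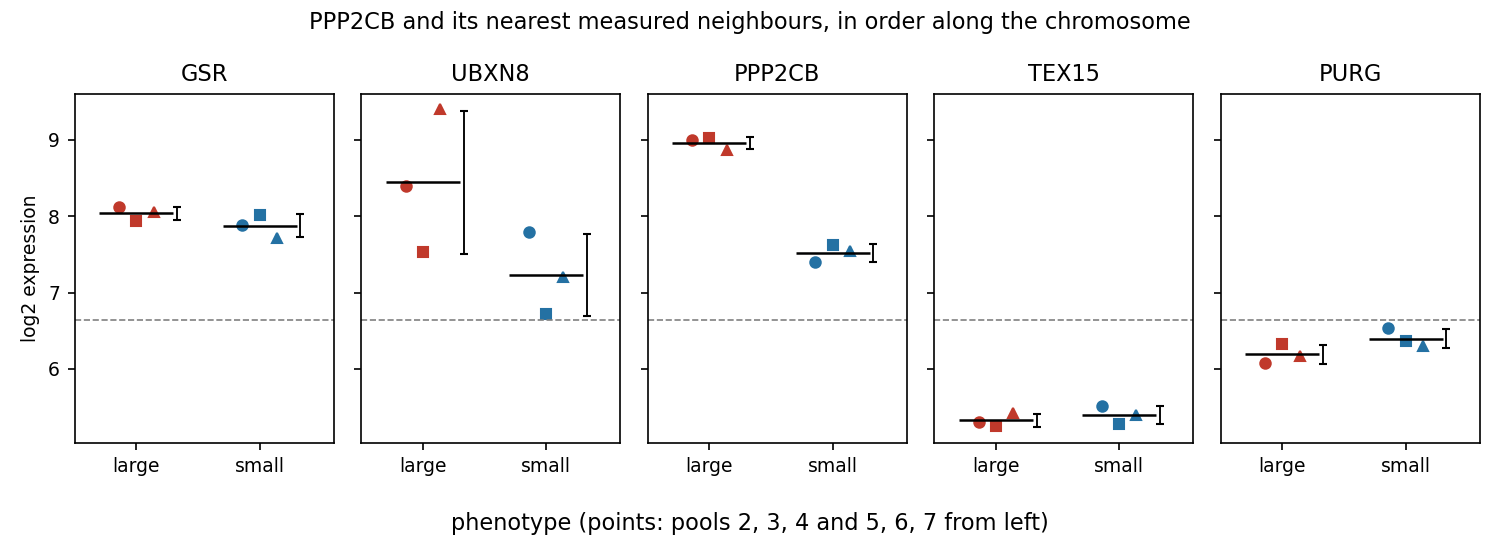
Log2 expression (vertical axis) of *PPP2CB* and of the 2 nearest measured genes on each side, ordered along the chromosome, in large (red) and small (blue) pools. Each point is 1 pool, with means as lines, SDs over 3 pools as bars and the floor dashed; *TEX15* and *PURG* stay below the floor, and the pools of *UBXN8* overlap whereas those of *PPP2CB* do not.

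Profiles over the 6 pools most like that of *PPP2CB* were sought among 11693 other genes above the floor in at least 2 pools, by the root mean square difference of log2 values after each gene was centred on its own mean. The closest were *TMEM144*, a transmembrane protein gene, with a difference of 0.09, *UGCG*, the glucosylceramide synthase gene, with 0.17, *EIF4E2*, a cap-binding translation factor gene, with 0.18, *OSTC*, of the oligosaccharyltransferase, with 0.19, and *RAB18*, a small GTPase gene, with 0.23. *TMEM144* and *UGCG* were above the floor in the 3 large pools and in 0 of 3 small pools, so they passed this filter only through the large pools. *EIF4E2*, *OSTC* and *RAB18* were above it in all 6 pools. The study also picked *TMEM144* from these same arrays, and its RT-qPCR gave a lower level in large than in small MUG-Chor1 cells. All of these genes were found by their likeness in these values, so the likeness is a description only. Among the other catalytic subunits the closest to *PPP2CB* was *PPP4C*, at a root mean square difference of 0.59, and that of *PPP2CA* was 0.65.

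None of the measured PP2A partners had a difference as large as that of *PPP2CB*. Of 17 scaffold and regulatory subunits 9 were higher and 8 lower (11 and 6 after centring), with log2 fold changes between -0.31 and 0.31 and a median of 0.02. At an unadjusted p under 0.05 from limma 0 were higher and 1 was lower, where 4.33% of all genes were higher and 10.5% lower. The lower 1 was *PPP2R2C*, a B subunit gene below the floor in all pools, with -0.25. After centring or quantile normalization 0 had such a p. The next by p were the B subunit gene *PPP2R3B*, also below the floor, with -0.31, and the striatin gene *STRN4*, with -0.18 (adjusted p from limma 0.44).

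Of 13 PP2A assembly factors, methylation enzymes and inhibitors 9 were higher, with a median of 0.06. At an unadjusted p under 0.05 from limma 1 was higher and 0 were lower, where 4.33% of all genes were higher and 10.5% lower. After centring the median was 0.15 and 3 higher genes had such a p, *PPME1*, *LCMT1* and *PABIR1*, and after quantile normalization 1 was higher and 1 lower, *PPME1* and *SET*. As deposited it was *PPME1*, the methylesterase that takes the methyl group off the C-terminus of the PP2A catalytic subunit, with 9.04, 9.42 and 9.25 in large and 8.68, 8.52 and 9.08 in small pools. Its pools overlapped, and its log2 fold change was 0.47 (adjusted p from limma 0.33). *LCMT1*, the methyltransferase that puts this group on, had 8.22, 7.87 and 8.35 in large and 6.77, 6.51 and 8.13 in small pools. Small pool 7 lay among the large pools, and the log2 fold change of *LCMT1* was 1.01 (standard error 0.43, adjusted p from limma 0.34). *PABIR1*, a PP2A inhibitor gene, had 0.58 (adjusted p from limma 0.34). Of 10 measured genes of STRIPAK, the complex in which striatins tie PP2A to kinases, 9 were higher (10 after centring) with a median of 0.13, and 0 had an unadjusted p under 0.05. After centring the median was 0.22 and 1 gene, *SLMAP*, was higher with such a p. The smallest p as deposited belonged to *SLMAP* with 0.35, *CTTNBP2NL* with 0.61 and *FGFR1OP2* with 0.42 (adjusted p from limma 0.37 to 0.46).

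Of 34 PP1 regulatory subunits and inhibitors 12 were higher and 22 lower in large pools (16 and 18 after centring), with a median of -0.11, the same as over all genes. With an unadjusted p under 0.05 from limma, 1 was higher and 3 were lower, where 4.33% of all genes were higher and 10.5% lower. Among the lower was *PPP1R14A*, below the floor in all pools. After centring 3 were higher, *WDR82*, *PPP1R3C* and *TP53BP2*, and 0 lower at this p, and after quantile normalization 2 were higher and 4 lower. *WDR82*, of the PNUTS-PP1 complex at RNA polymerase II, had 9.81, 8.50 and 9.51 in large and 7.82, 8.16 and 6.93 in small pools. Its pools did not overlap, and its log2 fold change was 1.63 (standard error 0.44, adjusted p from limma 0.32). *PPP1R1A*, an inhibitor of PP1, had -0.27 and *PPP1R12C*, a myosin phosphatase targeting subunit, had -0.32, each with an adjusted p from limma of 0.32. The pools of *PPP1R1A* and *PPP1R12C* did not overlap either. In this list 1 higher and 8 lower genes had pools without overlap, where 5.48% of all genes were higher and 21.6% lower in this way.

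Of 12 calcineurin subunits, inhibitors and NFAT genes 6 were higher and 6 lower (8 and 4 after centring). At an unadjusted p under 0.05 from limma 1 was higher and 1 lower, where 4.33% of all genes were higher and 10.5% lower. Under either other scaling only the higher 1 had such a p. *CHP1*, a calcineurin B homologous protein that inhibits calcineurin, had 9.57, 9.43 and 9.58 in large and 8.86, 9.27 and 8.20 in small pools, which did not overlap. The log2 fold change of *CHP1* was 0.75 (standard error 0.27, adjusted p from limma 0.32). *NFATC1* had -0.43 and *CABIN1*, another inhibitor of calcineurin, had -0.25, with adjusted p from limma of 0.34 and 0.36. The pools of *NFATC1* and *CABIN1* did not overlap either. In this list 1 higher and 3 lower genes had pools without overlap, where 5.48% of all genes were higher and 21.6% lower in this way. The gamma catalytic subunit gene *PPP3CC*, which belongs to the same family, had 0.37 with overlapping pools (adjusted p from limma 0.58). The other family genes, *PPEF1* with 0.51 and *PPEF2* with -0.17, were below the floor in all pools, and *PPEF1* had an unadjusted p under 0.05 after centring.

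Of 11 PP4 and PP6 regulatory subunits 4 were higher and 7 lower (7 and 4 after centring). As deposited 0 had an unadjusted p under 0.05, and after centring 1 was higher with such a p, *PPP4R3B*. *PPP4R3B* had 0.39, *PPP6R1* had -0.19 and *PPP4R2* had -0.32. The smallest adjusted p from limma in this list was 0.34.

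Of 6 measured HSP90 chaperones and partners of PP5, 2 were higher and 4 lower (3 and 3 after centring). At an unadjusted p under 0.05 from limma 1 was higher and 1 lower, where 4.33% of all genes were higher and 10.5% lower. *FKBP4*, an immunophilin that binds HSP90 with tetratricopeptide repeats as PP5 does, had 9.47, 9.80 and 9.59 in large and 8.50, 7.71 and 8.25 in small pools. All large pools lay above all small pools, and the log2 fold change of *FKBP4* was 1.47 (standard error 0.22, adjusted p from limma 0.32). In this list 1 higher and 0 lower genes had pools without overlap, where 5.48% of all genes were higher and 21.6% lower in this way. *STIP1*, the co-chaperone that joins HSP70 and HSP90, had 8.51, 8.11 and 8.28 in large and 9.06, 8.49 and 9.13 in small pools. Its pools overlapped, with a value of -0.59 (adjusted p from limma 0.32). *HSP90AB1*, the constitutive HSP90 gene, had 0.14.

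The PPM phosphatases act on the same residues but have another fold. Of 17 measured genes 8 were higher and 9 lower (10 and 7 after centring). At an unadjusted p under 0.05, 1 was higher and 1 lower, and after centring 3 were higher and 0 lower. *PHLPP2*, which acts on AKT, had 7.75, 7.55 and 8.03 in large and 7.23, 7.14 and 6.87 in small pools, which did not overlap, and a value of 0.70 (standard error 0.16, adjusted p from limma 0.32). *PPM1F* had -0.29 and *PPM1J*, below the floor in all pools, had -0.18, and neither gene had overlapping pools. Over all of these lists, the members left aside, 61 of 123 measured genes were higher and 62 lower, with a median of -0.0037, and 0 were called. This even split held as deposited and nearly so after quantile normalization (64 and 59, median 0.01), whereas centring gave 76 and 47 with a median of 0.08. At an unadjusted p under 0.05 from limma, 5 of the 123 genes were higher and 7 lower, where 4.33% of all genes were higher and 10.5% lower. Quantile-normalized values gave 6 and 6, and centring 14 and 1. This balance turned with the scaling, as it did over all genes, from 797 and 1934 to 1207 and 718 under centring. The pools did not overlap for 5 higher and 19 lower of the 123 genes, where 5.48% of all genes were higher and 21.6% lower in this way.

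**Figure D4:**
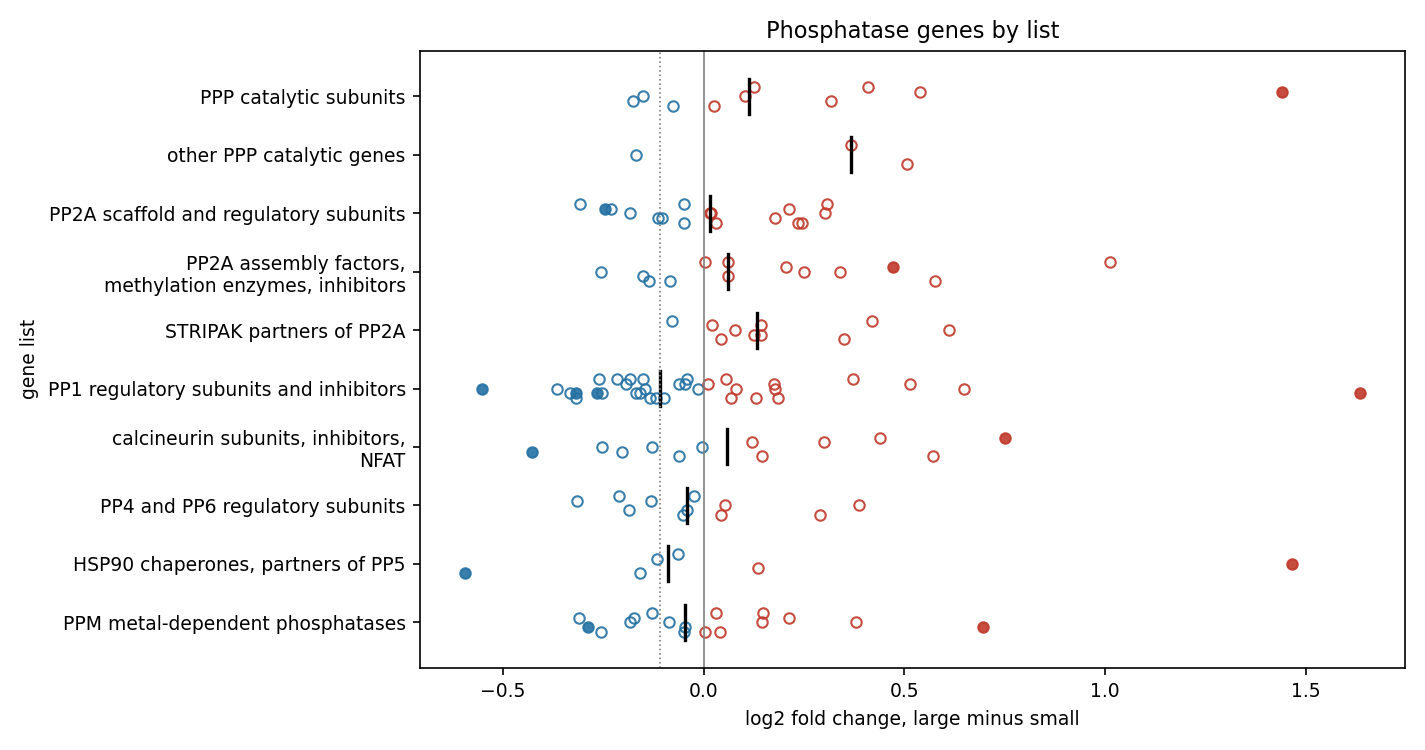
Log2 fold change of large against small pools (horizontal axis) for the genes of each phosphatase list (vertical axis). Each circle is a gene, red where higher and blue where lower in large pools, filled at an unadjusted p under 0.05 from limma; black bars are list medians and the dotted line is the median over all genes, -0.11. The filled red circle in the top line is *PPP2CB* at 1.44.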

How the data were processed

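The RNA of 20 cells was amplified with the NuGEN WT-Ovation One-Direct kit, and how evenly transcripts were amplified cannot be read from the values. The log2 expression of 6 Affymetrix arrays was used as deposited. Per the methods the authors summarized probes by robust multi-array averaging with the affy package, while Affymetrix Expression Console is the tool in the submitters' processing notes. Which chip definition was used is not given in the sources. Quantile normalization of probe signals within robust multi-array averaging can hide a global difference in RNA. The methods speak of quadruplicate pools, and 3 of each phenotype were analysed here. Replicates were not pooled, and for arrays their number limits the precision.

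Large minus small was fitted with limma 3.58.1 in R 4.3.3, with no covariate, on the brightest probe set of each of 18404 genes with a single symbol, and adjusted after Benjamini-Hochberg. Of 32321 probe sets, 19158 had 1 symbol, 1388 several and 11775 none. Following the methods, genes were called when adjusted p was under 0.05 and the log2 fold change exceeded 1 in either direction. No filter was applied, since the methods describe a filter on expression and variation without its limits and all members were to be tested. The fit was run on simulated data, with the only requirement that planted differences came out with the right sign. That does not show how many true differences 3 pools a group can call. The members, lists and tests were chosen with earlier results of these data known. Of 132 genes in the other phosphatase lists, 123 had a probe set with a single symbol. Named are the 10 members, the 3 genes with the smallest p of each phosphatase list, the 5 profiles nearest to *PPP2CB* and its 2 nearest measured neighbours on each side. By the same rule *TBXT*, *KRT8*, *KRT19* and *VIM* are named as a check of the cell line. Genes named outside this rule, after their values were seen, are *CD68*, *PTPRC*, *PPP1R14A*, *PPP1R3C*, *TP53BP2* and *SET*. The alternatives were quantile normalization, median centring, filters, all probe sets or their mean, other variance models, array weights and leaving out each pool. No paired analysis was possible because large and small pools share no numbers.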

Additional observations from a re-analysis of the deposited data

How the results depend on the processing

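The log2 fold change of *PPP2CB* could move only with quantile normalization, centring, array weights or a pool left out, and there it ran from 1.38 to 1.52. In the rest of the 16 other settings it stayed the same by construction, since only the variance, the genes tested or the mean of 1 probe set changed. The adjusted p of *PPP2CB* from limma was highest, 0.42, with filters on level above log2(100) in 25% of arrays and on an interquartile range above 0.5. Its lowest, 0.092, came after quantile normalization, leaving aside the setting described next. With the variance from all probe sets and p adjusted over filtered probe sets with 1 symbol, chosen after the values were seen, the log2 fold change was 1.44 and 1 member was called. That setting and the filter on variation tested 3 of the 10 members. Leaving out each pool in turn gave 1.38 to 1.49 for *PPP2CB*. Members higher at an unadjusted p under 0.05 numbered 1 to 2 when a pool was left out. The second was *PPP4C* without large pool 4 and *PPP6C* without small pool 5. *PPP1CA* was -0.00068 after quantile normalization, and *PPP3CA* was 0.0079 after centring. Leaving out a pool gave *PPP1CA* -0.21 to 0.25, *PPP1CC* -0.036 to 0.23 and *PPP3CB* -0.48 to 0.11, so that the sign of these small differences turned; the cause was not tested. *PPP2CB* minus *PPP2CA* ran from 0.96 to 1.42 and *PPP2CB* minus the median of the other members from 0.29 to 1.22 when a pool was left out. Array weights turned no member's sign. The mean of probe sets and a trend or robust variance could not turn one, since each member had 1 probe set and these variance models leave the fold change as it is. At 3 pools a group, the intervals of *PPP3CB*, *PPP4C* and *PPP6C* were wide enough to include a difference of 1 on the log2 scale in one direction.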
